A study of Mus musculus with 27 samples.

Results

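The splicing factor genes described here are the rows of the expression table whose gene name begins with Srsf, Hnrnp, Sf3a, Sf3b, Snrp or Prpf followed by a number or letter. Of 45706 genes in the table, 67 met that rule on names. Srsf12 stayed below the minimum of 10 normalised read counts in 3 libraries, and Snrp1c-ps2 and Hnrnpa1l2-ps were left out as pseudogenes by their names. The remaining 64 genes were among the 15932 genes tested and lie on 18 chromosomes. By prefix they comprise 10 genes of SR proteins, 20 of heterogeneous nuclear ribonucleoproteins (hnRNPs), 9 of the SF3a and SF3b complexes, 12 of small nuclear ribonucleoproteins (snRNPs) and 13 of PRP factors. All 64 are protein-coding genes in GENCODE M21. The rule uses names and a minimum level, and the set was taken up with earlier results of these data known.

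Splicing removes introns from nascent transcripts and is carried out by the spliceosome, a machine assembled from small nuclear RNAs and proteins. The Snrp and Sf3 genes encode proteins of its snRNP particles, the Prpf genes encode factors that join or remodel it, and SR proteins and hnRNPs bind the transcript and influence which splice sites are used. In the liver, insulin and nutrients are known to act on SR proteins through their phosphorylation, and many SR protein genes carry exons that direct their own transcripts to decay. The counts used here are per gene and do not separate such isoforms, and they say nothing of protein or phosphorylation.

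Liver RNA of wild-type (WT) mice of a strain labelled C57/BLN6 was sequenced as stranded mRNA libraries, 3 per group. All mice, controls included, had been fasted for 16 h. Refed mice then ate for 30, 60, 120 or 240 min, caged food mice were for the same times given food that they could sense and not eat, and fasted mice received neither. The comparison of refed with caged food livers at the same time separates eating from sensing food, whereas the fasted group is 1 group shared by all times and not matched to them in clock time.

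Depth was estimated at 25.6 to 52.5 M assigned reads per library, so that 1 read was worth 0.775 to 1.688 normalised read counts. Hepatocyte markers such as Alb and Ttr were abundant in every library, with 8 of 8 markers measured and sums of 3785772 to 6775391 normalised read counts. The treatment label of refed 240 min replicate 3 and that of caged food 240 min replicate 1 each name the other group than the title, and titles were used. G6pc, a gluconeogenic enzyme that feeding lowers, had 1215, 2316 and 2539 normalised read counts in refed 240 min livers and 13875, 13308 and 13371 in caged food 240 min livers, in which each library sat with its title. The library refed 30 min replicate 1 (pancreas markers summing to 6116, against 357 and 385 in the other refed 30 min livers) and, among caged food livers, replicate 1 of 30 min, replicate 2 of 60 min and replicate 3 of 120 min were the 4 libraries farthest from the others in an earlier look at these data. In bulk tissue, fewer cells of a type and less RNA per cell cannot be told apart.

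Promoter windows are shown for the SR protein gene with the largest rise (Srsf7), for the SF3a gene with the largest rise (Sf3a1) and for the SR protein gene with the largest fall (Srsf5), because the data set them side by side as genes of related function with opposite responses. They come from RefSeq on GRCm38.p6, run from 250 bases before the start of the gene to 50 bases after it, and are written 5′ to 3′ on the strand of the gene. Capitals mark the letters CCGGAAG or their reverse complement, which hold the GGAA core known from ETS family binding sites.
Srsf7, chr17:80207256-80207555, minus strand: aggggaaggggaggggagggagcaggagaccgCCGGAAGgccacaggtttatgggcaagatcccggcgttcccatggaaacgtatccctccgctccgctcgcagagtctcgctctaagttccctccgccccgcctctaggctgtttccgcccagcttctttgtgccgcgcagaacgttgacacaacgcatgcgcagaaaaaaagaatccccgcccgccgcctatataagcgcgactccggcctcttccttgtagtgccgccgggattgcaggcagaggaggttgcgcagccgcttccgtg
Sf3a1, chr11:4160104-4160403, plus strand: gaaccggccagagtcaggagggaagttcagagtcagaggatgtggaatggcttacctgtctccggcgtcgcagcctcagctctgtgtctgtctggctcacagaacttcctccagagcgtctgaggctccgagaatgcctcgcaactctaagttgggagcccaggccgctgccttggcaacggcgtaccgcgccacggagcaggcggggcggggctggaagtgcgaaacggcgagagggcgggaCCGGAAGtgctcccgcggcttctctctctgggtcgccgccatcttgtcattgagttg
Srsf5, chr12:80945249-80945548, plus strand: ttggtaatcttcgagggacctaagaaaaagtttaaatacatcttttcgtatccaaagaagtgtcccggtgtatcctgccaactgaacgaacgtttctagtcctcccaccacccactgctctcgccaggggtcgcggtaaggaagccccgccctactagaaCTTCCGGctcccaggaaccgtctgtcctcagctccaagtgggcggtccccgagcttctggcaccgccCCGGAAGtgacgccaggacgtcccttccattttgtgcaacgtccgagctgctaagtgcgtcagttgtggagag
Counted from the start of the gene, with negative positions before it, the motif begins at -218 in Srsf7 and at -7 in Sf3a1. Srsf5 holds it once on each strand, at -90 in reverse and at -23 in the forward direction. Searched on both strands, the 7 letters occurred in 20 of 56 splicing factor genes with a window (35.7%) and in 2683 of 27025 genes with a window (9.93%). The latter include genes not expressed in liver, whereas the members passed a minimum level. The share among expressed genes was not taken. The motif was present in 9 of 27 members that rose on average over time in refed against caged food livers, in 1 of 2 that fell and in 10 of 27 that were not called. A match describes letters and is not a measured binding site.

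Per length of exon, the most abundant splicing factor transcript of the liver was Hnrnpa2b1, at a level of 52.0 (normalised read counts per kilobase of exon and per M counts of the library). Srsf5 followed at 47.0, Prpf8 (the largest protein of the catalytic centre) at 43.3 and Hnrnpab at 32.8. Snrpb, which encodes the core Sm proteins B and B', was the most abundant snRNP gene at a level of 25.4, and Sf3b2 led the SF3 genes at 20.5. The lowest level per length was that of Snrpc at 0.738, followed by Hnrnpa1. Hnrnpa1 has many near-identical processed copies in the genome, so reads that match several places may be missing from its count, and its values are uncertain. The same holds to a lesser degree for the small Sm genes such as Snrpg, Snrpe and Snrpd2.

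In refed livers the splicing factor genes moved mostly upwards from 60 min on, and in caged food livers no member was called changed. A gene was called changed when limma gave a Benjamini-Hochberg adjusted p under 0.05 over the 15932 genes tested. Against caged food livers of the same time, 0 members rose and 0 fell at 30 min (7 at unadjusted p under 0.05, and 1 call with quantile normalization or with array quality weights), 21 rose and 2 fell at 60 min, 10 rose and 3 fell at 120 min, and 24 rose and 4 fell at 240 min. Of all genes tested, 0.207% were called higher and 0.069% lower at 30 min, 6.73% and 4.18% at 60 min, 5.98% and 5.3% at 120 min, and 14.6% and 12.4% at 240 min. The median log2 difference over the 64 members was 0.03, 0.15, 0.11 and 0.17 at 30, 60, 120 and 240 min, where the median over all genes lay between -0.02 and 0.00. In 25, 24 and 32 members all 3 refed libraries lay above all 3 caged food libraries at 60, 120 and 240 min (12.2%, 15.6% and 21.3% of all genes), and in 3, 3 and 7 members below them (9.67%, 14.1% and 20.4%). Most members are well expressed, and such genes are called more often. Among genes with a mean of 200 normalised read counts or more, which include 60 members, 8.67%, 8.55% and 20.4% were called higher at 60, 120 and 240 min.

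These counts depended on single libraries and on the fit. At 60 min the count of 23 became 14 without refed replicate 1, 13 without refed replicate 3, 11 without caged food replicate 2 and 13 without caged food replicate 3, and in a fit of only the 6 libraries compared it was 2, namely Srsf7 and Sf3a1. At 120 min the count of 13 became 7 without refed replicate 1, 8 without refed replicate 2 and 7 without caged food replicate 2. At 240 min it was 18 with both libraries of conflicting labels left out and 0 with these grouped by the treatment label, under which every call of refed 240 min against caged food or fasted livers was lost.

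**Figure D1:**
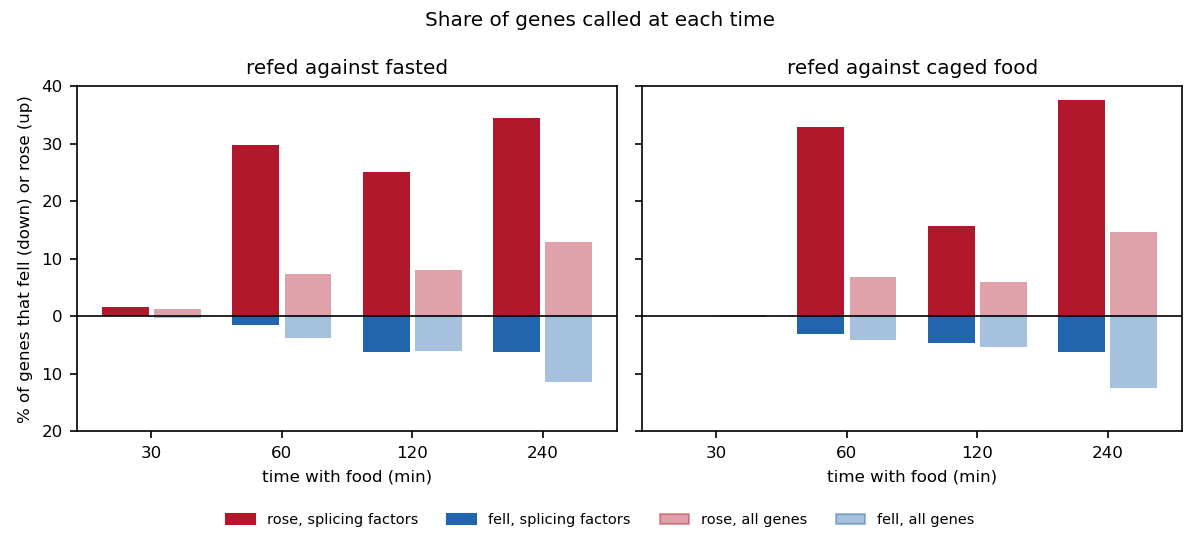
Share of the 64 splicing factor genes (full colour) and of all 15932 genes tested (pale) that were called higher (upward bars) or lower (downward bars) in refed against fasted livers (left) and against caged food livers (right), in percent, by minutes with food (x axis). At 60, 120 and 240 min the share of members called higher (32.8%, 15.6% and 37.5% in refed against caged food livers) lies above that of all genes (6.73%, 5.98% and 14.6%).

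Against fasted livers, 1 member rose and 0 fell at 30 min in refed livers, 19 rose and 1 fell at 60 min, 16 rose and 4 fell at 120 min, and 22 rose and 4 fell at 240 min. The shares of all genes called higher were 1.31%, 7.26%, 7.95% and 12.9% at these times and those called lower 0.326%, 3.75%, 6.13% and 11.4%. The fasted libraries are the same 3 throughout, and the count of 20 at 60 min became 13 without fasted replicate 2, 12 without fasted replicate 3 and 13 without refed replicate 3. At 120 min the count of 20 became 12 without fasted replicate 1, 12 without fasted replicate 2 and 13 without fasted replicate 3, and at 240 min the count of 26 became 16 without refed replicate 1.

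In caged food livers, limma called 0 of 64 members against fasted livers at 30, 60, 120 or 240 min, where 0.0126%, 0.22%, 0.0377% and 0% of all genes were called. At unadjusted p under 0.05 there were 3, 7, 3 and 4 members, and quantile normalization gave 1 call at 60 min. The lowest adjusted p of any member was 0.0552, that of Srsf5 at 60 min, which had 7540, 7554 and 8259 normalised read counts in caged food livers and 9714, 9758 and 9411 in fasted livers. All caged food libraries were below all fasted libraries, with a log2 difference of -0.31 ± 0.07 (SE). Prpf40b, the next in order, had 877, 785 and 922 in caged food livers at 60 min and 1076, 1102 and 1105 in fasted livers, also without overlap (log2 difference -0.35 ± 0.08, SE, adjusted p = 0.0661 by limma). Over the 64 members the log2 differences between caged food and fasted livers lay between -0.35 and 0.31 at any time, with standard errors of 0.059 to 0.217.

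Among SR protein genes, 6 of 10 rose and 1 fell in refed against caged food livers at 60 min, 4 rose and 1 fell at 120 min, and 6 rose and 1 fell at 240 min. The rises were 60%, 40% and 60% of these genes, beside 6.73%, 5.98% and 14.6% of all genes called higher. The falls were 10% at each time, beside 4.18%, 5.3% and 12.4% of all genes called lower. Srsf7 (chr17:80200080-80207307, minus strand), an SR protein with a zinc knuckle that also acts in RNA export and polyadenylation, had the largest rise of all members at 60 min. It had 1942, 1810 and 1930 normalised read counts in refed 60 min livers, against 1154, 1098 and 840 in caged food 60 min livers and 1091, 1123 and 974 in fasted livers. All refed libraries were above all others, at 1894 ± 73.0 in refed livers and 1031 ± 168 in caged food livers (SD, n = 3 each), a 1.85-fold difference (log2 0.89 ± 0.11, SE, adjusted p = 8.08e-06 by limma).

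At 120 min Srsf7 had 1850, 1972 and 1750 in refed livers and 1188, 1142 and 1256 in caged food livers, again without overlap (log2 0.63 ± 0.11, adjusted p = 0.00043). After 240 min the values were 1499, 1427 and 1228 in refed livers and 1125, 1116 and 1026 in caged food livers. The log2 difference was then 0.34 ± 0.11 (adjusted p = 0.0226), and the call was lost without refed replicate 1, refed replicate 2 or caged food replicate 3 (adjusted p = 0.113, 0.0726 and 0.0874 by limma). Within refed livers, Srsf7 was lower at 240 min than at 60 min (log2 -0.46 ± 0.11, adjusted p = 0.00745). With both libraries of conflicting labels left out that difference had an adjusted p of 0.0555.

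Srsf5, in contrast, fell. It is an abundant SR protein gene (chr12:80945504-80950507, plus strand), first known as an insulin-induced gene in rat liver cells under the name HRS. In refed livers Srsf5 had 9068, 8622 and 8932 normalised read counts at 30 min, 7034, 6718 and 7656 at 60 min, 7633, 6717 and 6603 at 120 min, and 6834, 6510 and 6520 at 240 min, against 9714, 9758 and 9411 in fasted livers. Refed libraries from 60 min on were all below every fasted library, with log2 differences of -0.43, -0.47 and -0.54 at 60, 120 and 240 min (SE 0.07 each, adjusted p = 0.000118, 4.97e-05 and 3.85e-06 by limma).

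The caged food livers placed this fall differently. They had 9404, 8914 and 8798 normalised read counts of Srsf5 at 30 min, 7540, 7554 and 8259 at 60 min, 8282, 9050 and 8073 at 120 min, and 9149, 10170 and 9452 at 240 min. Refed and caged food livers overlapped at 60 min, and Srsf5 was not called there. At 240 min refed livers averaged 6621 ± 184 and caged food livers 9590 ± 524 (SD, n = 3 each), a fold of 0.691 (log2 -0.53 ± 0.07, adjusted p = 3.53e-06). The gap changed with time (adjusted p = 0.00495 by limma's F test), and the smaller fall at 120 min (log2 -0.28 ± 0.07, adjusted p = 0.00781) lost its call without refed replicate 3 or caged food replicate 2 (adjusted p = 0.0536 and 0.0586).

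Srsf4 was the other SR gene lower in refed livers, at 60 min. It had 493, 540 and 486 normalised read counts in refed 60 min livers and 650, 682 and 782 in caged food 60 min livers, without overlap (log2 -0.47 ± 0.12, adjusted p = 0.00901 by limma). Fasted livers had 574, 589 and 537, so caged food libraries at 60 min lay above fasted as well as refed libraries. Srsf4 was not called at any other time or against fasted livers. Among the remaining SR genes, Srsf1, Srsf2 and Srsf3 rose against caged food livers at 60, 120 and 240 min, and are named for this count after their values were seen. Every one of these calls except those of Srsf2 at 60 and 240 min was lost when 1 library or another was left out. Srsf2, which binds exonic enhancers, had 5011, 4720 and 4723 in refed 60 min livers and 3669, 3853 and 3969 in caged food 60 min livers (log2 0.33 ± 0.07, adjusted p = 0.00191). Srsf11 was not called in any of 17 comparisons.

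**Figure D2:**
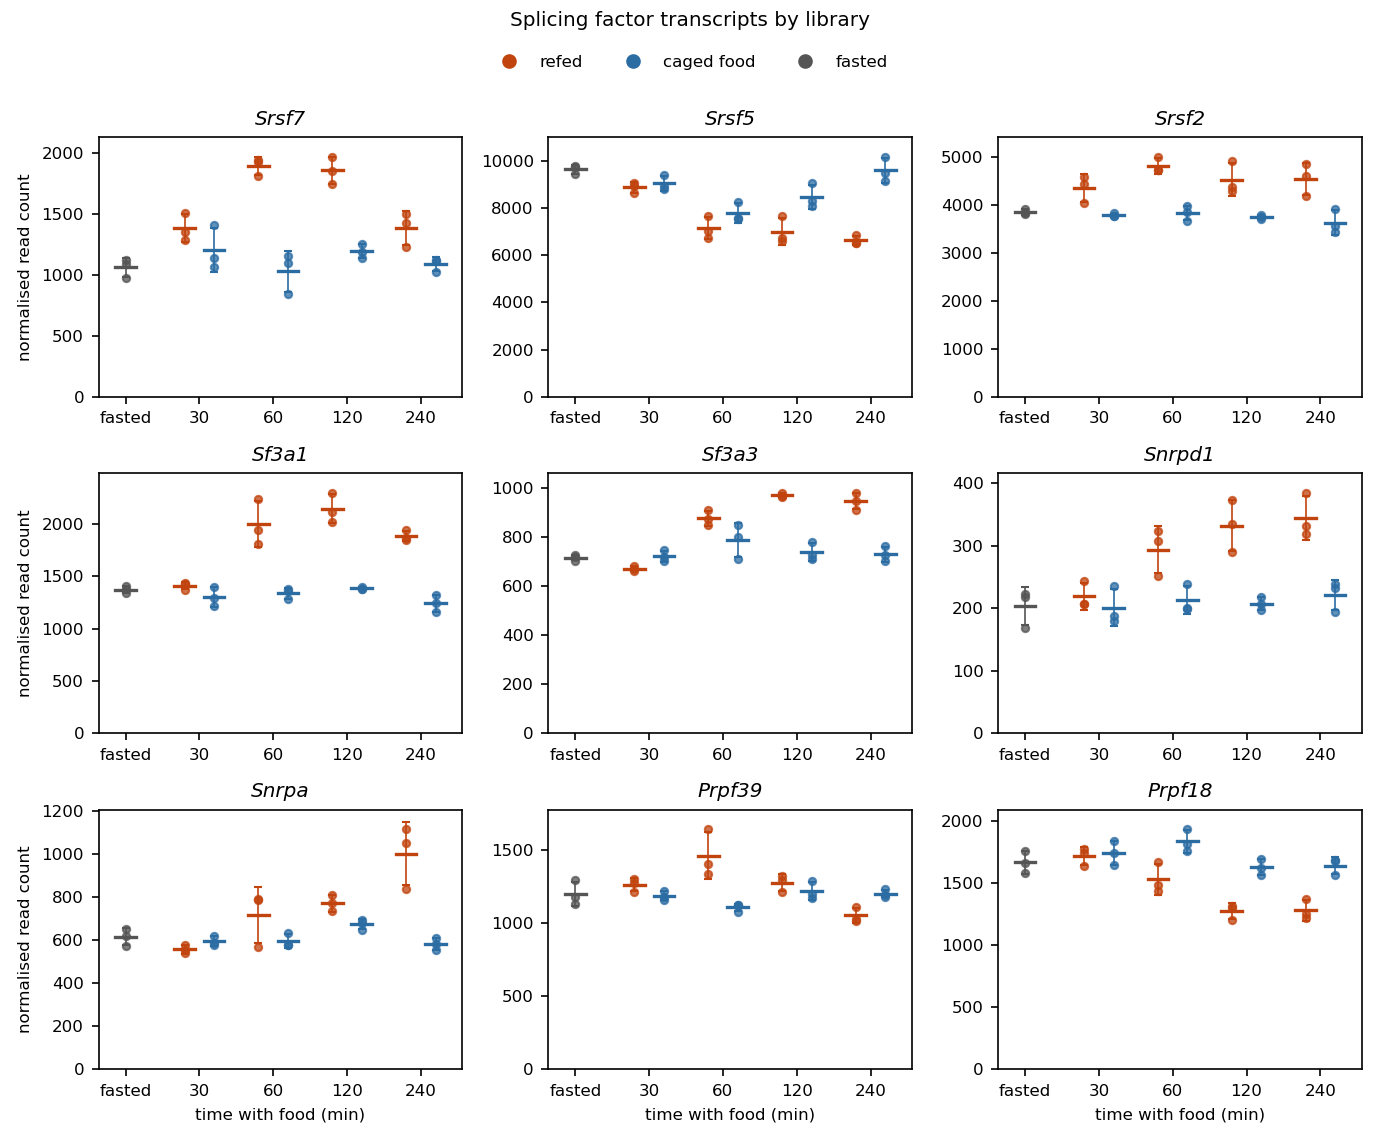
Normalised read counts (y axis, from 0) of 9 splicing factor genes in each of the 27 livers, in fasted livers and then in refed (left) and caged food (right) livers at 30, 60, 120 and 240 min; dots are libraries and bars the group mean with its SD. Srsf7 is highest at 60 and 120 min in refed livers, Sf3a1 stays high from 60 min to 240 min, Snrpa is highest at 240 min, and Srsf5 and Prpf18 are lower in refed livers at 240 min.

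The hnRNPs are abundant proteins that coat nascent transcripts, and several of them repress splice sites. Of 20 hnRNP genes, 7 rose and 0 fell in refed against caged food livers at 60 min, 1 rose and 1 fell at 120 min, and 5 rose and 1 fell at 240 min. The rises were 35%, 5% and 25% of these genes, beside 6.73%, 5.98% and 14.6% of all genes called higher. The 120 min count is near the shares of all genes called (5.98% higher and 5.3% lower). The 25% at 240 min is near the 20.4% called higher among genes with a mean of 200 normalised read counts or more. The fall at 240 min was 5%, below the 12.4% of all genes called lower. At 30 min, 1 of 64 members (1.56%) was called in refed against fasted livers, near the 1.31% of all genes called higher. That member was Hnrnph1, which binds runs of G and can enhance or silence exons. At 30 min it had 4325, 4440 and 4697 normalised read counts in refed livers, 3460, 3695 and 3444 in caged food livers and 3642, 3334 and 3161 in fasted livers. Refed livers lay above both other groups, and against fasted livers the log2 difference was 0.41 ± 0.09 (adjusted p = 0.0121 by limma). That call, the 1 call of a member at 30 min, was lost without fasted replicate 2 or 3 or refed replicate 2 or 3 (adjusted p = 0.0595, 0.101, 0.0552 and 0.0601). Against caged food livers at 30 min the adjusted p was 0.116.

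At 60 min Hnrnph1 had 4567, 4390 and 5408 in refed livers and 3748, 4090 and 3822 in caged food livers, and refed livers exceeded fasted livers by a log2 of 0.50 ± 0.09 (adjusted p = 0.000362 by limma). At 240 min it had 4393, 4441 and 3700 in refed livers and 3026, 3217 and 3186 in caged food livers (log2 0.41 ± 0.09, adjusted p = 0.00109). Hnrnph1 and Hnrnph2 are close in sequence, and Hnrnph2 was not called in any comparison. Hnrnpc, a core protein of the hnRNP particle that competes with U2AF at uridine tracts, rose against fasted livers from 60 min on. It had 2410, 2483 and 2530 normalised read counts at 60 min, 2773, 2436 and 2502 at 120 min and 3083, 2648 and 2481 at 240 min in refed livers, against 1997, 1969 and 2039 in fasted livers. Refed libraries were above every fasted library at each of these times, with log2 differences of 0.31, 0.36 and 0.45 (SE 0.07 each, adjusted p = 0.00754, 0.00173 and 0.000106). Caged food livers had 2192, 2013 and 2008 at 60 min, 2323, 2219 and 2431 at 120 min and 1953, 2115 and 2207 at 240 min. At 120 min these caged food libraries were all above the fasted ones (log2 0.21 ± 0.07, adjusted p = 0.423), and Hnrnpc was not called in refed against caged food livers (log2 0.14 ± 0.07, adjusted p = 0.241). At 240 min it was (log2 0.38 ± 0.07, adjusted p = 0.000427).

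Hnrnpl, which binds CA-rich sequences, was the hnRNP gene that fell. It had 3961, 2864 and 3509 normalised read counts in refed 120 min livers and 4511, 4885 and 4638 in caged food 120 min livers (log2 -0.45 ± 0.11, adjusted p = 0.00645 by limma), a call lost without refed replicate 2 (adjusted p = 0.067). After 240 min Hnrnpl had 3134, 3500 and 3365 in refed livers and 4535, 4447 and 4770 in fasted livers (log2 -0.46 ± 0.11, adjusted p = 0.00271). Its paralog Hnrnpll was not called lower at any time. Hnrnpd, known as AUF1 for its binding to AU-rich elements, had 2770, 2408 and 2669 in refed 60 min livers and 2147, 1979 and 1966 in caged food 60 min livers. That difference (log2 0.36 ± 0.08, adjusted p = 0.00297) was not called against fasted livers, which had 2367, 2410 and 2713 and overlapped with refed livers. All caged food libraries of Hnrnpd at 60 min lay below all fasted ones (log2 -0.30 ± 0.08, adjusted p = 0.127 by limma, not called).

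The most abundant hnRNP gene, Hnrnpa2b1, was called in no comparison at a single time. Over the 4 times together it was higher in refed than in caged food livers by a log2 of 0.13 ± 0.04 (adjusted p = 0.0254 by limma). Hnrnpa1 had a log2 difference of 0.43 ± 0.07 in the same comparison (adjusted p = 9.19e-05), subject to the uncertainty of its counts. It ranged from 92 to 207 normalised read counts over all libraries and was called at no single time. Hnrnpk, Hnrnpm, Hnrnpa0, Hnrnpul1 and Hnrnpul2 were called in none of 17 comparisons.

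SF3a and SF3b are the protein complexes of the U2 snRNP that recognise the branch point. Of their 9 genes, 2 rose at 60 min, 2 at 120 min and 4 at 240 min in refed against caged food livers, and every call was a rise. These shares of 22.2%, 22.2% and 44.4% stand beside 6.73%, 5.98% and 14.6% of all genes called higher, and rest on few genes. Sf3a1 (chr11:4160350-4182541, plus strand), a subunit of SF3a called at all 3 times, had 2239, 1941 and 1810 normalised read counts at 60 min, 2301, 2023 and 2118 at 120 min and 1869, 1843 and 1939 at 240 min in refed livers. Caged food livers had 1381, 1356 and 1278 at 60 min, 1380, 1381 and 1398 at 120 min and 1162, 1240 and 1325 at 240 min. No refed library overlapped with a caged food library at these times, and the log2 differences were 0.57, 0.63 and 0.60 (SE 0.07 each, adjusted p = 1.29e-05, 4.63e-06 and 2.19e-06 by limma). At 240 min all caged food libraries lay below all fasted ones (log2 -0.15 ± 0.07, adjusted p = 0.994). Against fasted livers the log2 difference of refed livers at 240 min was 0.46.

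The rise of Sf3a1 set in between 30 and 60 min. At 30 min it had 1371, 1427 and 1434 in refed livers, within the range seen in caged food (1211, 1401 and 1290) and fasted livers (1336, 1409 and 1374) or just above it. Refed livers at 60 min exceeded refed livers at 30 min by a log2 of 0.50 ± 0.07 (adjusted p = 0.000249 by limma). Sf3a1 kept its call under every alternative at 60 and 120 min, and at 240 min under all except the grouping by treatment label.

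Sf3a3, the subunit that bridges SF3a to the rest of the particle, followed with 967, 983 and 970 in refed 120 min livers and 712, 727 and 783 in caged food 120 min livers (log2 0.39 ± 0.07, adjusted p = 0.000289 by limma). It was not called against caged food livers at 60 min, where refed livers had 910, 875 and 849 and caged food livers 802, 849 and 713. At 240 min it had 983, 914 and 949 in refed livers and 704, 763 and 726 in caged food livers (log2 0.38 ± 0.07, adjusted p = 0.000158).

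Of SF3b, Sf3b3 (SF3b130) was called higher against caged food livers at 60 and 240 min and not at 120 min (adjusted p = 0.592 by limma). At 60 min it had 3225, 2657 and 2596 in refed livers and 2448, 2400 and 2230 in caged food livers. At 240 min it had 3146, 2758 and 2979 in refed livers against 2043, 2141 and 1848 in caged food livers. The groups did not overlap (log2 0.56 ± 0.08, adjusted p = 1.28e-05 by limma). Caged food livers at 240 min were themselves below the fasted libraries at 2351, 2323 and 2362, and against fasted livers the log2 difference of refed livers was 0.33 ± 0.08 (adjusted p = 0.00309). Sf3b1, a frequent target of mutation in myeloid neoplasms, and Sf3b2, Sf3b5 and Sf3b6 were not called in any comparison. Their log2 differences lay between -0.14 and 0.15 at any single time.

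Of the 12 snRNP genes, 1 rose at 60 min, 1 at 120 min and 2 at 240 min in refed against caged food livers, and every call was a rise. These shares of 8.33%, 8.33% and 16.7% are near the 6.73%, 5.98% and 14.6% of all genes called higher, so the counts are no result about the snRNP genes as a group. Snrpd1 and Snrpa carried these calls. Snrpd1, which encodes the Sm ring protein D1 and lies on chromosome 18, had 290, 373 and 334 normalised read counts in refed 120 min livers and 218, 197 and 207 in caged food 120 min livers (log2 0.67 ± 0.14, adjusted p = 0.00246 by limma). After 240 min, Snrpd1 had 385, 332 and 318 in refed livers and 194, 233 and 238 in caged food livers (log2 0.64 ± 0.14, adjusted p = 0.00147). All refed libraries were above all caged food and fasted libraries (218, 168 and 223) at both times. Its call at 60 min (log2 0.46 ± 0.14, adjusted p = 0.035) was lost without refed replicate 1 or 3 or caged food replicate 2 or 3 (adjusted p = 0.147, 0.102, 0.106 and 0.0962).

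Snrpa, a protein of the U1 snRNP that binds its RNA and regulates polyadenylation, rose late. It had 1116, 1050 and 835 normalised read counts in refed 240 min livers, against 611, 581 and 552 in caged food 240 min livers and 652, 573 and 617 in fasted livers. All refed libraries were higher (log2 0.77 ± 0.11 against caged food livers, adjusted p = 1.23e-05 by limma), a 1.71-fold difference and the largest rise of a member in that comparison. Refed livers at 240 min also exceeded refed livers at 60 min, which had 792, 787 and 565 (log2 0.49 ± 0.11, adjusted p = 0.00412). With both libraries of conflicting labels left out the log2 difference from caged food livers at 240 min was 0.93.

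Snrpd3, a further Sm gene, was called at 120 min against fasted livers, and is named after its values were seen. It had 1212, 1452 and 1269 in refed 120 min livers and 1055, 1042 and 1151 in fasted livers (log2 0.27 ± 0.09, adjusted p = 0.0489 by limma). The call was lost without fasted replicate 1, 2 or 3 or refed replicate 2 or 3 (adjusted p = 0.131, 0.157, 0.0536, 0.234 and 0.0809), and Snrpd3 was not called against caged food livers at any time. Snrpb had 2281, 2259 and 2029 in refed 240 min livers and 2150, 2152 and 2071 in caged food 240 min livers, and 9 of 12 snRNP genes were called in none of 17 comparisons. The log2 differences of these 9 genes lay between -0.28 (Snrpf) and 0.33 (Snrpb2) at any single time. Low counts limit some of them, since Snrpf averaged 44.5 normalised read counts over all libraries.

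PRP factors act at successive steps of spliceosome assembly and activation. Of 13 genes, 5 rose and 1 fell at 60 min, 2 rose and 1 fell at 120 min, and 7 rose and 2 fell at 240 min in refed against caged food livers. The rises were 38.5%, 15.4% and 53.8% of these genes, beside 6.73%, 5.98% and 14.6% of all genes called higher. The falls of 7.69%, 7.69% and 15.4% were near the 4.18%, 5.3% and 12.4% of all genes called lower. Prpf31, a U4 snRNP protein needed to form the tri-snRNP and known from retinitis pigmentosa, had 1034, 948 and 973 normalised read counts in refed 240 min livers and 557, 630 and 626 in caged food 240 min livers. The groups did not overlap, and the difference was 1.63-fold (log2 0.71 ± 0.10, adjusted p = 1.77e-05 by limma). The call at 60 min (log2 0.36 ± 0.10, adjusted p = 0.025) was lost without refed replicate 1 or caged food replicate 1 or 3 (adjusted p = 0.121, 0.0849 and 0.087) and without refed replicate 3 (adjusted p = 0.0527). Prpf3, a protein of the same U4/U6 particle, had 751, 715 and 613 in refed 240 min livers and 404, 516 and 473 in caged food 240 min livers (log2 0.58 ± 0.14, adjusted p = 0.00263).

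Prpf18, a second-step factor, was the member that fell at all 3 later times. It had 1301, 1318 and 1204 normalised read counts in refed 120 min livers and 1564, 1693 and 1623 in caged food 120 min livers. After 240 min, Prpf18 had 1215, 1252 and 1372 in refed livers and 1684, 1561 and 1677 in caged food livers. The groups were apart at both times (log2 -0.35 ± 0.07 and -0.36 ± 0.07, adjusted p = 0.00183 and 0.000534 by limma). The fall at 60 min (log2 -0.27 ± 0.07, adjusted p = 0.0159) was lost without refed replicate 1 or 2 or caged food replicate 2 (adjusted p = 0.0632, 0.0778 and 0.0767). Prpf40b, a U1-associated factor, fell against fasted livers at 240 min, with 863, 938 and 851 in refed livers and 1076, 1102 and 1105 in fasted livers (log2 -0.31 ± 0.08, adjusted p = 0.00715), but was not called against caged food livers at any time.

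Prpf39, a U1 snRNP factor, was the 1 member called in both directions. It had 1402, 1335 and 1644 normalised read counts in refed 60 min livers and 1123, 1078 and 1121 in caged food 60 min livers, a rise (log2 0.39 ± 0.07, adjusted p = 0.000728 by limma). At 240 min it had 1030, 1015 and 1108 in refed livers and 1193, 1230 and 1180 in caged food livers, a fall (log2 -0.19 ± 0.07, adjusted p = 0.0494). That fall was lost without any 1 of refed replicates 1 and 2 and caged food replicates 1, 2 and 3. The change within refed livers held, with 240 min below 60 min by a log2 of -0.47 ± 0.07 (adjusted p = 0.000127). Prpf8 had 15735, 14746 and 14750 in refed 240 min livers and 12948, 13982 and 13037 in caged food 240 min livers, and was not called in any comparison.

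**Figure D3:**
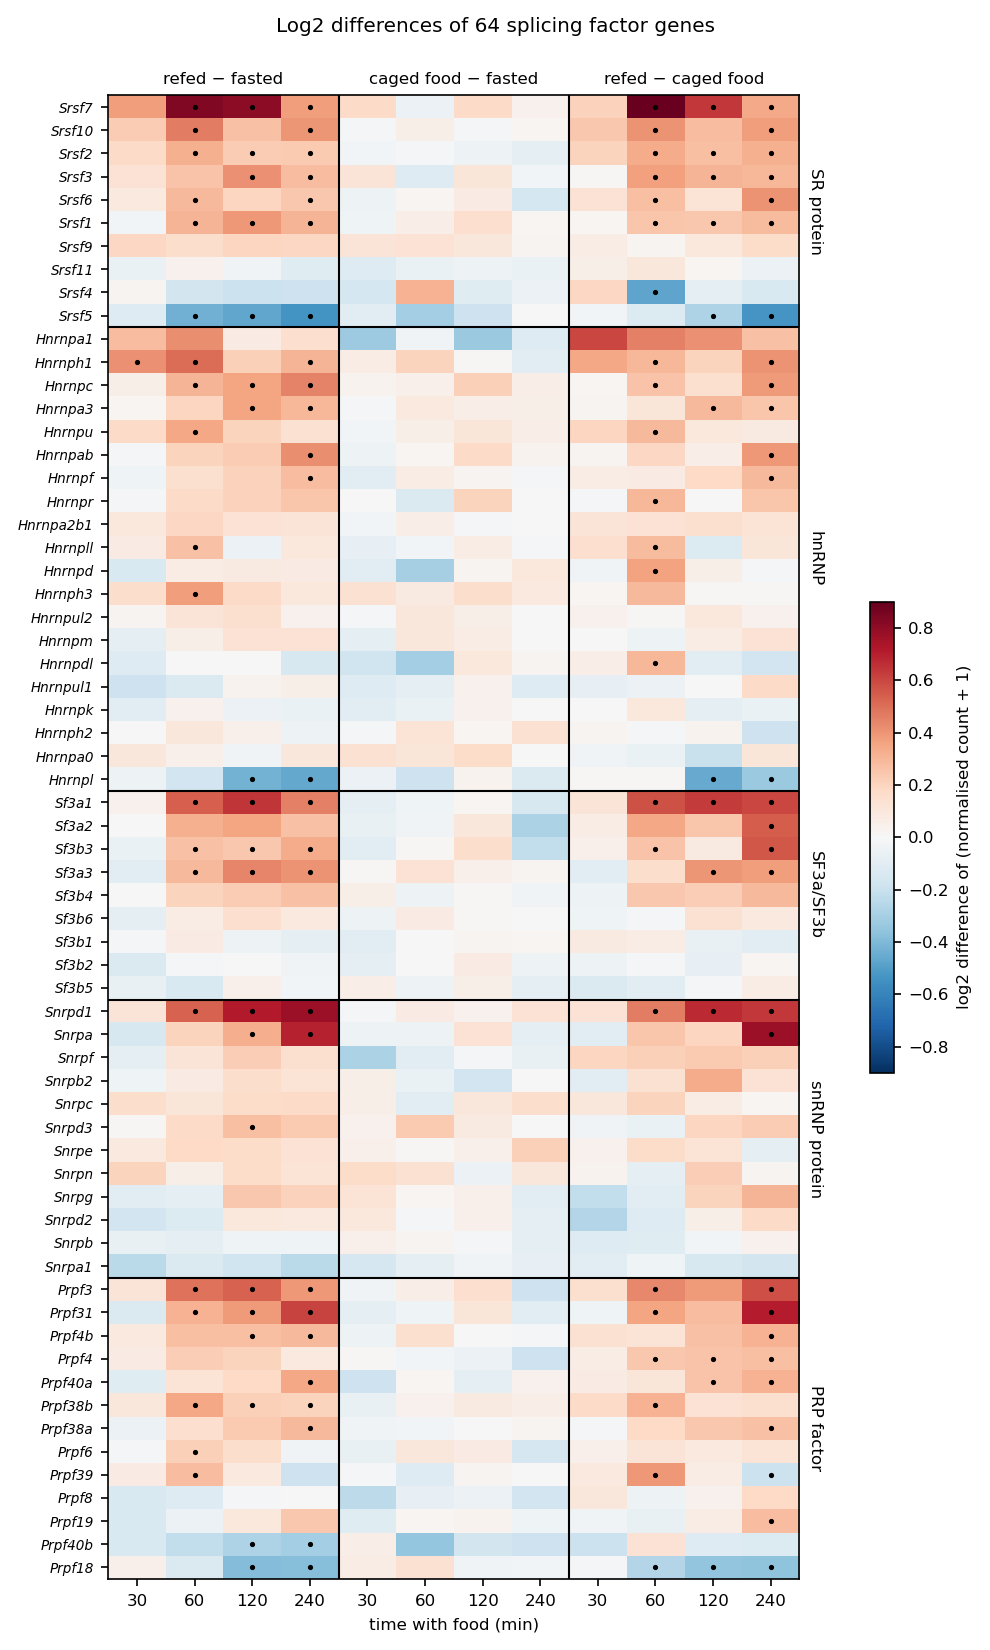
Log2 differences of the 64 splicing factor genes (rows, grouped by role) in 12 comparisons (columns: 4 of refed and then 4 of caged food livers, each set against fasted livers, followed by 4 of refed against caged food livers, always at 30, 60, 120 and 240 min); colour gives the log2 difference and dots mark calls at an adjusted p under 0.05. In the columns of refed livers from 60 min on, 13 to 28 of 64 members are called, and none is in the 4 columns of caged food against fasted livers.

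The comparisons of refed with caged food livers at different times compare different libraries but share 1 estimate of the spread of each gene. Recurrent calls of a gene were counted and are not independent of each other. Of 64 members, 7 rose at 3 times (Srsf1, Srsf2, Srsf3, Srsf7, Sf3a1, Snrpd1 and Prpf4), 10 at 2 times and 14 at 1 time (10.9%, 15.6% and 21.9%), and 29 were called at no time (45.3%). Of all genes tested, 1.81% rose at 3 times, 4.78% at 2 times and 12.2% at 1 time, and 66% were called at no time. Prpf18 fell at 3 times, Srsf5 and Hnrnpl at 2, and Srsf4 and Prpf39 at 1. As an average over the 4 times, 31 members rose and 3 fell in refed against caged food livers, beside 17.3% and 14.1% of all genes called higher and lower. The largest average differences were those of Srsf7 (log2 0.52 ± 0.05, adjusted p = 1.5e-07 by limma) and Sf3a1 (log2 0.48 ± 0.04, adjusted p = 1.3e-09), and the 3 that fell were Prpf18, Srsf5 and Hnrnpl. The average against fasted livers gave 19 rises and 4 falls, beside 8.97% and 5.98% of all genes.

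Within refed livers, 9 members rose and 1 fell between 30 and 60 min, beside 3.38% and 2.45% of all genes. That count of 10 became 3 without refed 30 min replicate 1, the library with pancreas markers, 6 without refed 30 min replicate 3 and 5 without refed 60 min replicate 1. Between 60 and 240 min, 2 members rose (Snrpa and Prpf19) and 4 fell (Prpf39, Srsf7, Prpf18 and Prpf6). The rises (3.12%) were below the 6.27% of all genes called higher, and the falls (6.25%) near the 6.23% called lower. The calls of Prpf18 and Prpf19 were among those lost without single libraries, refed 240 min replicate 1 being one for both. For 9 members (14.1%) the gap that separated refed from caged food livers changed with time, near the 9.97% of all genes called (limma's F test). Sf3a3 had the lowest adjusted p of 0.00229.

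Summed over all 64 genes, splicing factors took 0.348% to 0.358% of the normalised read counts of a library at 30 min, 0.374% to 0.403% at 60 min, 0.379% to 0.415% at 120 min and 0.383% to 0.401% at 240 min in refed livers. Caged food livers had 0.337% to 0.351%, 0.32% to 0.334%, 0.351% to 0.367% and 0.338% to 0.357% at these times, and fasted livers 0.345% to 0.358%. As shares of the library, the ranges of refed livers overlapped with the others at 30 min and lay above those of caged food and fasted livers at 60, 120 and 240 min. As sums of normalised read counts they overlapped at 120 min, with 158491 to 176918 in refed livers and 159380 to 159777 in caged food livers, while total counts were lower in each of these refed libraries than in each of the caged food ones.

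Genes that act beside the splicing factors were followed in 6 lists, whose counts stand beside 6.73%, 5.98% and 14.6% of all genes called higher and 4.18%, 5.3% and 12.4% called lower in refed against caged food livers at 60, 120 and 240 min. Among 14 kinases and phosphatases of SR proteins, 2 rose and 3 fell at 60 min, 2 rose and 2 fell at 120 min, and 3 rose and 3 fell at 240 min. The kinase Clk1 (log2 -0.49 ± 0.07, adjusted p = 9.73e-06 by limma) and the kinase Dyrk1b (log2 -0.95 ± 0.13, adjusted p = 1.22e-05) fell, and the phosphatase Ppm1g rose (log2 0.36 ± 0.07, adjusted p = 0.000606) at 240 min. Of 5 nuclear import factors, 3 were called against caged food livers, each higher at 240 min and at no other time (Kpnb1, Tnpo2 and Tnpo3, the carrier of SR proteins, with a log2 of 0.29 ± 0.06). Of 50 other core spliceosome proteins, 3 rose and 2 fell at 60 min, 6 rose and 0 fell at 120 min, and 20 rose and 1 fell at 240 min, led by U2af2, the large subunit of U2AF (log2 0.55 ± 0.06, adjusted p = 9.79e-07).

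Of 44 other regulators of splice site choice, 12 rose and 0 fell at 60 min, 10 rose and 3 fell at 120 min, and 14 rose and 5 fell at 240 min in the same comparison. Rbm10 showed the lowest p of these at 240 min (log2 0.83 ± 0.08, adjusted p = 6.55e-08 by limma). The SMN complex loads Sm proteins onto small nuclear RNA. Of 12 tested genes listed for this complex and for Sm protein assembly, 3 rose at 60 min, 1 rose at 120 min, and 5 rose and 1 fell at 240 min. At 240 min Wdr77 was higher (log2 0.52 ± 0.12, adjusted p = 0.00266) and Gemin2 was lower (log2 -0.61 ± 0.10, adjusted p = 7.7e-05). Of 19 genes of the exon junction complex and of nonsense-mediated decay, 3 rose at 60 min, 2 rose at 120 min, and 8 rose and 1 fell at 240 min, led by Smg5 (log2 0.63 ± 0.10, adjusted p = 5.42e-05).

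Some markers of other liver cells also differed in refed livers at 240 min. Of all genes tested, 14.6% were called higher and 12.4% lower against caged food livers at that time. Against fasted livers 11.4% were called lower. Summed over 6 markers of sinusoidal endothelium, refed 240 min livers had 14455 to 15092 normalised read counts, caged food 240 min livers 16140 to 16769 and fasted livers 16222 to 18101, and 2 of 6 markers fell against caged food livers. The 5 stellate cell markers summed to 10056 to 11975 in refed 240 min livers, 12280 to 13734 in caged food 240 min livers and 14323 to 15923 in fasted livers. In refed livers 3 of 5 were called lower than in fasted livers and 0 of 5 were called against caged food livers. The caged food sums also lay below the fasted sums. The 4 cholangiocyte markers summed to 392 to 447 in refed 240 min livers and 233 to 308 in caged food 240 min livers, with 2 of 4 higher. At 60 min, caged food replicate 2 had the highest sums of leukocyte markers (2284) and Kupffer cell markers (25210) of its group. No marker was at 0 in any group outside the pancreas list, and the part of cell composition in the splicing factor results was not tested.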

How the data were processed

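Polyadenylated liver RNA was measured in 27 libraries, 3 in each of 9 groups. Per the submitters' processing notes, reads were aligned to mm10 (GRCm38) with STAR 2.4.0a and counted with featureCounts 1.4.5-p1 of Subread. The deposited values are taken as a score: the authors divided the reads of each gene by 1 scaling factor per library and rounded the quotient, as the spacing of the values shows. The scaling method is not given in the sources used here. Whether strand was used in counting is likewise not given.

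Genes with a value of 10 or more in 3 or more libraries were tested (15932 genes). Log2 of the value plus 1 was fitted with limma 3.58.1 (mean-variance trend, R 4.3.3) to 9 group means of all 27 libraries. Within a comparison, p-values received a Benjamini-Hochberg adjustment across all genes tested, and calls were made under 0.05. Errors of log2 differences are standard errors of that fit, in which the folds understate changes of low genes. Exon lengths, the union of the exons of a gene, and coordinates come from GENCODE M21, which matched 45143 identifiers (98.8%). Depth was estimated from the spacing of low values. Data were simulated for all 27 libraries from the mean of each gene over all groups (15707 genes). Changes were put into refed 120 min livers only, in genes above a minimum mean. Against fasted livers, 67.2%, 83.6% and 97% of genes changed 1.5, 2 and 4 times were called beside 9 false calls.

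The members, the 6 pathway lists and the 8 lists of cell type markers were chosen with earlier results of these data known. The rule for named genes took, at each time, the 4 called members that rose most and the 4 that fell most without overlap between groups. It added for each role the 2 members of lowest p and the most abundant one, every member called in the F test over time, and at most 3 called genes of lowest p of each pathway list. Same-numbered replicates were treated as unpaired, since the mean correlation of same-numbered residuals was -0.00944 over 108 pairs. Other settings tried were a pseudocount of 5, quantile normalization, testing without a filter, a replicate block, array quality weights, a fit of only the groups compared, omission of each replicate, omission of 4 libraries that stood apart, and omission or regrouping (by treatment label) of 2 libraries whose labels conflict. Background shares among genes with a mean of 200 or more were added after the data were seen. Samples of the series beyond these 27 were not analysed here. Tables and figures were made with numpy 2.4.6, matplotlib 3.10.9 and pandas 2.3.3 under Python 3.11.15.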

Additional observations from a re-analysis of the deposited data

Results flagged for a closer look

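For 9 members the gap that separated refed from caged food livers itself changed over the 4 times (limma's F test, adjusted over all genes). These 14.1% of members are near the 9.97% of all genes called, so the count is no result about the members as a group. The adjusted p was 0.00229 for Sf3a3, 0.00411 for Prpf39, 0.00419 for Snrpa, 0.00455 for Sf3a1, 0.00495 for Srsf5, 0.00999 for Prpf31, 0.0106 for Sf3b3, 0.0171 for Srsf7 and 0.0464 for Hnrnpd. The call of Hnrnpd was lost in many of the fits that left out 1 library. Prpf39 was higher in refed livers at 60 min and lower at 240 min. Snrpa, Prpf31 and Sf3b3 had their largest differences at 240 min, Srsf7 and Hnrnpd at 60 min and Sf3a1 and Sf3a3 at 120 min. Srsf5 had its largest difference, a fall, at 240 min. With the 2 libraries of conflicting labels grouped by the treatment label, 0 of these were called.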

How the results depend on the processing

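No member call reversed its direction between alternatives except Hnrnpf in refed against caged food livers at 240 min, whose log2 difference was -0.0104 with the treatment label in place of the title. Of 213 calls of members, 42 were kept under every alternative and 171 were lost under at least 1. The alternatives include the grouping by treatment label, which alone removed every call of refed 240 min against caged food or fasted livers. Over 3902 alternative values of these calls, 3259 stayed called in the same direction and 642 lost the call in the same direction.

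Grouped by the treatment label, the members called were 0 in refed 240 min against fasted livers, 1 for the mean over times against fasted livers, 0 against caged food livers at 240 min, 13 for the mean over times against caged food livers, 3 for refed 240 min against refed 60 min and 0 in the F test. With both of these libraries left out, 18 were called in refed against caged food livers at 240 min. In fits of only the groups compared, 2 were called for refed 30 min and 12 for refed 60 min against fasted livers, 2 and 8 against caged food livers at 60 and 120 min, 3 for refed 60 min against refed 30 min and 2 for refed 240 min against refed 60 min. Fewer samples then estimate the spread. Array quality weights gave 3 and 35 calls against fasted livers at 30 and 120 min, 1 and 12 against caged food livers at 30 and 60 min and 10 for refed 240 min against refed 60 min. Quantile normalization gave 1 for caged food against fasted livers at 60 min and 1 for refed against caged food livers at 30 min. Without a filter 15 members were called in refed against caged food livers at 60 min. Without the 4 libraries that stood apart this was 13, and 5 for refed 60 min against refed 30 min. Except where named above, the cause was not tested.

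With 1 replicate left out, the counts ranged from 0 to 1, 12 to 19, 12 to 16 and 16 to 26 in refed against fasted livers at 30, 60, 120 and 240 min and from 12 to 24 for their mean. In caged food against fasted livers they were 0 to 0 throughout. In refed against caged food livers they ranged from 0 to 0, 11 to 17, 7 to 13 and 19 to 27, and from 30 to 37 for the mean. They ranged from 3 to 11 for refed 60 min against refed 30 min, 4 to 9 for refed 240 min against refed 60 min and 8 to 11 in the F test. For the mean against fasted livers, the count of 23 became 15 without fasted replicate 1, 12 without fasted replicate 2 and 12 without fasted replicate 3. The replicate numbers share only a number: 8 of 27 libraries were closest to a library of their own number. With a replicate block, 21, 12 and 27 members were called in refed against caged food livers at 60, 120 and 240 min. The labels name 3 biological replicates, whose source is not described. In the simulated data 67.2% of genes changed 1.5 times were called at this size of group. The changed genes were drawn from all genes above a minimum mean, so this rate is not that of the members. Members without a call may still differ. Smaller changes, such as those of most members, were not simulated.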
